A study of Homo sapiens with 28 samples.

Results

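The ERK feedback regulators described here are 10 genes, DUSP1, DUSP4, DUSP5, DUSP6, SPRY2, SPRY4, SPRED1, PHLDA1, ETV4 and ETV5, taken by name from a table of 58735 genes. All 10 passed the filter on low counts and were among the 17191 genes tested. The set was followed in a human breast cancer line of the triple-negative type, MDA-MB-231, across attached cells, cells held in suspension and dying cells. Control cells carried an empty vector (EV), and a second line overexpressed tropomyosin 2.1 (Tpm2.1), a product of the gene TPM2 that coats actin filaments. Both lines were kept in puromycin.

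The 28 libraries formed 14 groups of 2 biological replicates. EV cells and Tpm2.1 cells were attached to tissue culture plates for 6 hours, or kept afloat on ultra-low attachment plates and sampled at 5 hours and at 1, 2 and 4 days. Suspended Tpm2.1 cells, and no others per the labels, were parted at each time on Annexin V beads, which bind phosphatidylserine on dying cells, into a non-apoptotic and an apoptotic fraction. Line and separation therefore cannot be told apart where the lines are compared in suspension, nor can detachment and separation within the Tpm2.1 line. Attached cells were sampled at 6 hours only, so at 1, 2 and 4 days detachment and time in culture cannot be told apart either. Detachment below means suspended cells set against these attached cells. The attached libraries carry other numbers in their names than the suspended ones, and the labels do not say whether they were made together. The labels name 1 line of each kind and do not say whether it is a clone, or how the replicate cultures were kept apart, so p-values measure the spread between these libraries, which may be technical.

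ERK is the last kinase of the RAS, RAF, MEK cascade and carries growth factor signals to the nucleus. Cells with active ERK transcribe genes whose products damp the same cascade. DUSP1 and DUSP4 are nuclear phosphatases that dephosphorylate ERK, JNK and p38, DUSP5 is a nuclear phosphatase selective for ERK, and DUSP6 is its cytoplasmic counterpart. SPRY2, SPRY4 and SPRED1 act upstream, between receptor tyrosine kinases, RAS and RAF, and SPRED1 brings the RAS GTPase-activating protein neurofibromin to the membrane. PHLDA1 is a pleckstrin homology-like protein induced by growth factors, and ETV4 and ETV5 are ETS transcription factors that are widely used as readouts of ERK output. Loss of attachment removes integrin signals that feed into this cascade, and anoikis is the apoptosis that can follow.

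In build hg38 of the deposited table, DUSP1 lies at chr5:172768090-172771195, DUSP5 at chr10:110497838-110511544 and DUSP6 at chr12:89347232-89353271. SPRY2 lies at chr13:80335976-80340951, SPRY4 at chr5:142310427-142326455 and SPRED1 at chr15:38252326-38357249. PHLDA1 lies at chr12:76025447-76033932, ETV4 at chr17:43527844-43579620 and ETV5 at chr3:186046308-186110318. DUSP5 and SPRED1 are on the plus strand and the others on the minus strand, and all 10 members are annotated as protein-coding genes.

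Promoters of 3 members with unlike courses are shown, since on detachment DUSP1 was lower and SPRY4 higher at every time in EV cells, while DUSP6 was lower at 5 hours and higher later. The sequences are RefSeq's, build GRCh38.p14, minus strand, read 5′ to 3′ from 250 bases before to 50 bases after the gene's start. Capitals mark matches to the cyclic AMP response element TGACGTCA, its shorter form TGACG and the TEAD motif GGAATG, searched on both strands; each full element also counts as a shorter one on either strand. DUSP1 lies at chr5:172771146-172771445, DUSP6 at chr12:89352452-89352751 and SPRY4 at chr5:142324198-142324497.
DUSP1: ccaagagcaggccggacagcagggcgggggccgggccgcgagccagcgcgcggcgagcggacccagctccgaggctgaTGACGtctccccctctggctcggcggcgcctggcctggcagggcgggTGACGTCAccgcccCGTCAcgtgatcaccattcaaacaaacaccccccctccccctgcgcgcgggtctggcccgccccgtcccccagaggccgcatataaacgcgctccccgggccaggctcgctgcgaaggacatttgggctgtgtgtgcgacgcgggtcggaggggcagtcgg
DUSP6: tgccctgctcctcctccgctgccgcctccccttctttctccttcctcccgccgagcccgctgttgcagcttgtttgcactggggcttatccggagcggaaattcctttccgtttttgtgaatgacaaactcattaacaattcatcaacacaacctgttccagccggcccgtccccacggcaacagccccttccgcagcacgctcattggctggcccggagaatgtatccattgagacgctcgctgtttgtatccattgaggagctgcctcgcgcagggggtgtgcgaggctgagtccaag
SPRY4: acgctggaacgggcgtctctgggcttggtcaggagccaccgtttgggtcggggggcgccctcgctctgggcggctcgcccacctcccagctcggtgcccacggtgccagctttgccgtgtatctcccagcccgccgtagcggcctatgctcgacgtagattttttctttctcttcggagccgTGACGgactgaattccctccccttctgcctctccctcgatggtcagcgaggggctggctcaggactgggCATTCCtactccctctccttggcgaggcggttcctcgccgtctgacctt
The DUSP1 window held 1 full response element, which begins at position -125 from the start, and 4 matches to the shorter form, a pair of which lie within the full element. Of 35116 promoter windows of this length, 1.848% held the full element and 24.553% the shorter form. The SPRY4 window held 1 TGACG and 1 GGAATG, which 14.033% of windows hold. No searched motif was found in the DUSP6 window; the other motifs searched were AP-1 (TGANTCA, in 7.709% of windows), ETS (CCGGAA, in 17.249%) and the CArG box (in 1.293%). RefSeq windows matched 6 of the 10 members; of the windows not printed, the first of the 3 SPRY2 starts held 1 CCGGAA and 1 TGACG, PHLDA1 held 1 CCGGAA, and SPRED1 held none of the motifs. A match in a window is a description of the letters there.

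Library totals ran from 13043529 to 27416335 counts. TPM2 was at 21.2 to 48.2 CPM in EV libraries and at 2528 to 7319 CPM in Tpm2.1 libraries, which checks the line labels. CPM are counts divided by the library total, which was left unscaled for TPM2, the cell markers and MALAT1 and scaled for other genes. Of the line's own markers, VIM was at 784 to 1373 CPM, CD44 at 236 to 714 CPM, KRT18 at 92.7 to 248 CPM and KRT8 at 34.2 to 484 CPM. Of the genes usually low or absent in the line, CDH1 was at 0 in 23 libraries and PGR in 25. EPCAM, at 3.57 to 10.8 CPM, and ESR1, at 0.115 to 1.99 CPM, were detected in every library. Markers of blood, vessel and stromal cells, 13 in number, summed to 17.7 to 36.3 CPM in EV groups and to 46.3 to 190 CPM in Tpm2.1 groups. TIE1 made up 69% to 93.9% of that sum in Tpm2.1 libraries (32 to 170 CPM) and 6.88% to 63% in EV libraries (1.91 to 11.2 CPM), and CD3E and HBB were each at 0 in 27 libraries. The apoptotic fraction at 4 days stood apart, with 18183 to 18676 genes detected against at least 21275 in every other group, and 6.13% of counts from mitochondrial mRNAs. Means over times, ranges and correlations of the members that include this group are also given without it.

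**Figure D1:**
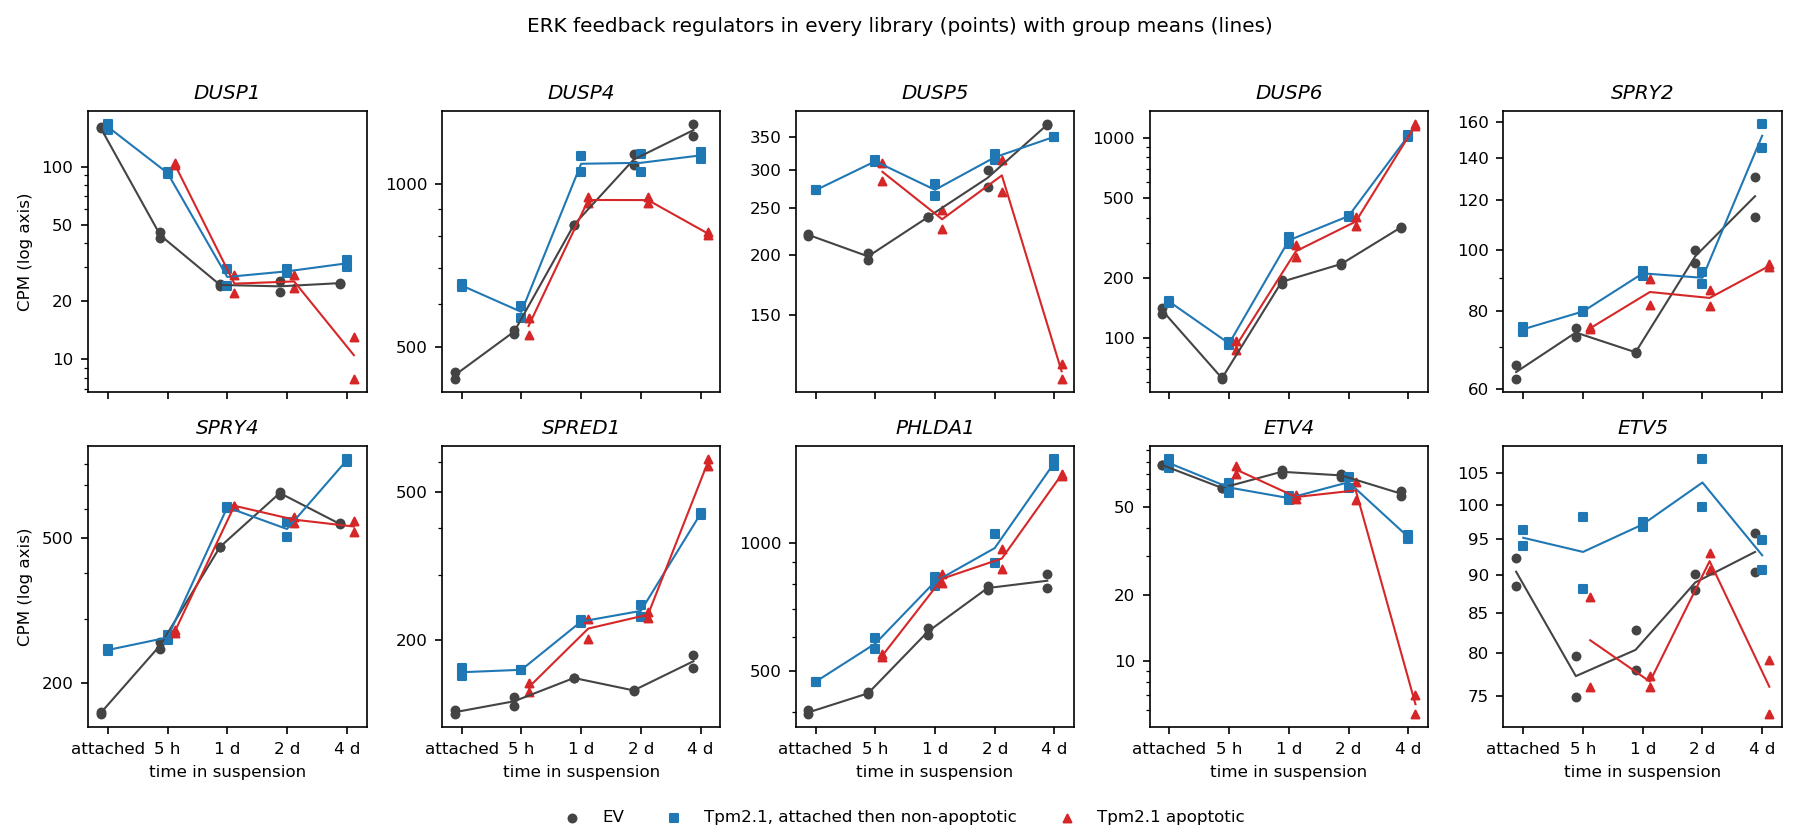
CPM of each ERK feedback regulator (log axis) against time in suspension, with points for libraries and lines through the means of 2 libraries; attached cells were sampled at 6 hours. DUSP1 drops from about 160 CPM, DUSP6 dips at 5 hours and climbs to 1174 CPM, and ETV4 reaches 5.73 CPM in the apoptotic fraction at 4 days.

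Compared per transcript length (FPKM), the members' levels spanned 1.85 for ETV4 to 261 for DUSP6, both in the apoptotic fraction at 4 days. DUSP5 was the highest of the 10 in attached cells of either line, at 83 FPKM in EV and 101 FPKM in Tpm2.1 cells. DUSP4 took that place in all groups at 1 and 2 days and in EV cells at 4 days, where it reached 172 FPKM. In both Tpm2.1 fractions at 4 days DUSP6 was the highest member, at 220 FPKM in the non-apoptotic and 261 FPKM in the apoptotic cells. DUSP6 had the widest range over the groups, 19.9-fold between the lowest and the highest group mean, followed by DUSP1 with 14.3-fold and ETV4 with 11.5-fold. The lowest means of DUSP1 and ETV4 and the highest of DUSP6 were in the apoptotic fraction at 4 days. Over the other 13 groups, a selection made after the values were seen, the range was 16.7-fold for DUSP6, 6.64-fold for DUSP1, 4.98-fold for SPRY4 and 2.12-fold for ETV4, whose group means were then 10 to 21.3 FPKM. ETV5 had the narrowest, 1.36-fold, with group means of 12.8 to 17.5 FPKM. When the 14 groups were put in order of level, 10 of the 13 neighbouring pairs overlapped in their libraries for ETV5 and 3 of 13 for DUSP6.

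In attached cells, before any detachment, the Tpm2.1 line had more of several members than the EV line, a comparison that asks what the transgene line differs in on plates. SPRY4, an inhibitor of receptor signalling to RAS, was at 247 and 244 CPM in Tpm2.1 cells and at 163 and 166 CPM in EV cells. DUSP4 was at 654 and 644 CPM against 450 and 435 CPM. For both genes the groups were well apart, by 1.49-fold for SPRY4 (log2 fold change 0.58, SE 0.05, adjusted p = 4.57e-11, edgeR quasi-likelihood test) and 1.47-fold for DUSP4 (0.55, SE 0.05). In all, 6 members were higher in the Tpm2.1 line and 0 lower, against 10.8% of all genes higher, 9.39% lower and 20.2% called in either direction. SPRED1 (0.36), DUSP5 (0.31), PHLDA1 (0.24) and SPRY2 (0.23) were the others on the log2 scale. DUSP1, DUSP6, ETV4 and ETV5 did not pass, with log2 differences of 0.02 to 0.14. The median over the 10 members was 0.23, and over all genes tested 0.01. SPRY2 no longer passed when EV replicate 2 (0.18) or either Tpm2.1 library was left out, or without the filter on low counts (0.19), nor PHLDA1 without EV replicate 2 (0.21).

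Detachment of the control line was followed by a large loss of DUSP1, while most other members rose. DUSP1 was at 158 and 160 CPM in attached EV cells, 42.4 and 45.5 CPM at 5 hours, and between 22.3 and 25.5 CPM in the 6 libraries of the later times. No suspended library overlapped the attached ones, and neither step after 1 day passed the test (log2 -0.02 and 0.05). The log2 fold change was -1.86 at 5 hours (SE 0.09) and -2.71 at 1 day (SE 0.10), the latter a 6.55-fold loss.

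DUSP6, the cytoplasmic ERK phosphatase, moved in both directions with time. It was at 133 and 142 CPM in attached EV cells, 63.8 and 62.3 CPM at 5 hours, 186 and 196 CPM at 1 day, 238 and 232 CPM at 2 days, and 359 and 356 CPM at 4 days. All 5 groups were apart from each other. It fell by 1.12 on the log2 scale at 5 hours (SE 0.07, adjusted p = 1.12e-16, edgeR quasi-likelihood test), then rose by 1.60 from 5 hours to 1 day, and ended 1.38 above attached cells (SE 0.06).

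SPRY4 rose at every time in EV cells, from 163 and 166 CPM attached to 248 and 259 CPM at 5 hours, 472 and 473 CPM at 1 day, 670.5 and 658 CPM at 2 days, and 545 and 548 CPM at 4 days. The peak at 2 days was 4.03-fold above attached cells, and the later step down passed the test (log2 -0.28). DUSP4 climbed through all 4 times, from 450 and 435 CPM attached to 1293 and 1226 CPM at 4 days, a log2 fold change of 1.51 (SE 0.05). PHLDA1 went from 403 and 395 CPM to 847 and 782 CPM at 4 days (log2 1.03). SPRY2, at 65.5 and 62.2 CPM in attached cells, was at 131 and 113 CPM at 4 days (log2 0.93), and DUSP5 had risen by 0.76 by then after a drop of 0.15 at 5 hours. The early drop of DUSP5 no longer passed when any 1 of the 4 libraries of that contrast was left out. At 5 hours in EV cells PHLDA1 (0.15) did not pass either without any 1 of those 4 libraries (0.12 to 0.16), nor with DESeq2, its size factors, the FPKM table's scaling (0.12 in each) or no filter on low counts (0.084). SPRY2 (0.21) did not pass without attached replicate 2 (0.16), 5-hour replicate 1 (0.17) or the filter (0.14).

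The ETS factors had no gain in EV cells. ETV4 fell by 0.34 at 5 hours and by 0.43 at 4 days on the log2 scale and did not pass at 1 or 2 days (-0.10 and -0.16). ETV5 fell by 0.23 at 5 hours and 0.17 at 1 day, and was at -0.02 and 0.04 at 2 and 4 days. The ETV5 value at 5 hours did not pass without EV 5-hour replicate 2 (-0.19), and that at 1 day without any 1 of its 4 libraries (-0.19 to -0.09) or among protein-coding genes alone (-0.07). Both genes overlap others in the annotation: ETV4 shares its locus with DHX8, a coding gene on the opposite strand with 1193 to 3371 counts per library, and ETV5 with DGKG, which had at most 10.53% of the ETV5 count. The strand used in counting is not given in the sources used here, so reads of ETV4 and DHX8 may have been split between the 2 genes.

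Over the mean of the 4 times in EV cells, 7 members rose and 2 fell (DUSP1, -2.50, and ETV4, -0.26), against 32.4% of all genes higher, 33.8% lower and 66.2% called in either direction. The share of genes called in these contrasts is so high that a count of 9 in 10 says little about the members, and the sizes of the changes carry the description. The members' median was 0.33 and that of all genes 0.03. At 5 hours 4 rose and 5 fell, against 26.1%, 28.6% and 54.7% of all genes higher, lower and in either direction. At 1 day 5 rose and 2 fell (31%, 32.1% and 63.1% of all genes), at 2 days 7 rose and 1 fell (31.8%, 32.9% and 64.7%), and at 4 days 7 rose and 2 fell (28.9%, 30.6% and 59.5%). The median of the 10 went from -0.02 at 5 hours to 0.84 at 4 days. Without 4 days, 6 members rose and 3 fell, DUSP6 no longer passed (0.04), and ETV5 passed (-0.14). Mitochondrial mRNAs made up 1.61% of counts in attached EV cells, 3.14% to 4.23% from 5 hours to 2 days, and 1.2% at 4 days; their part in these results was not tested.

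**Figure D2:**
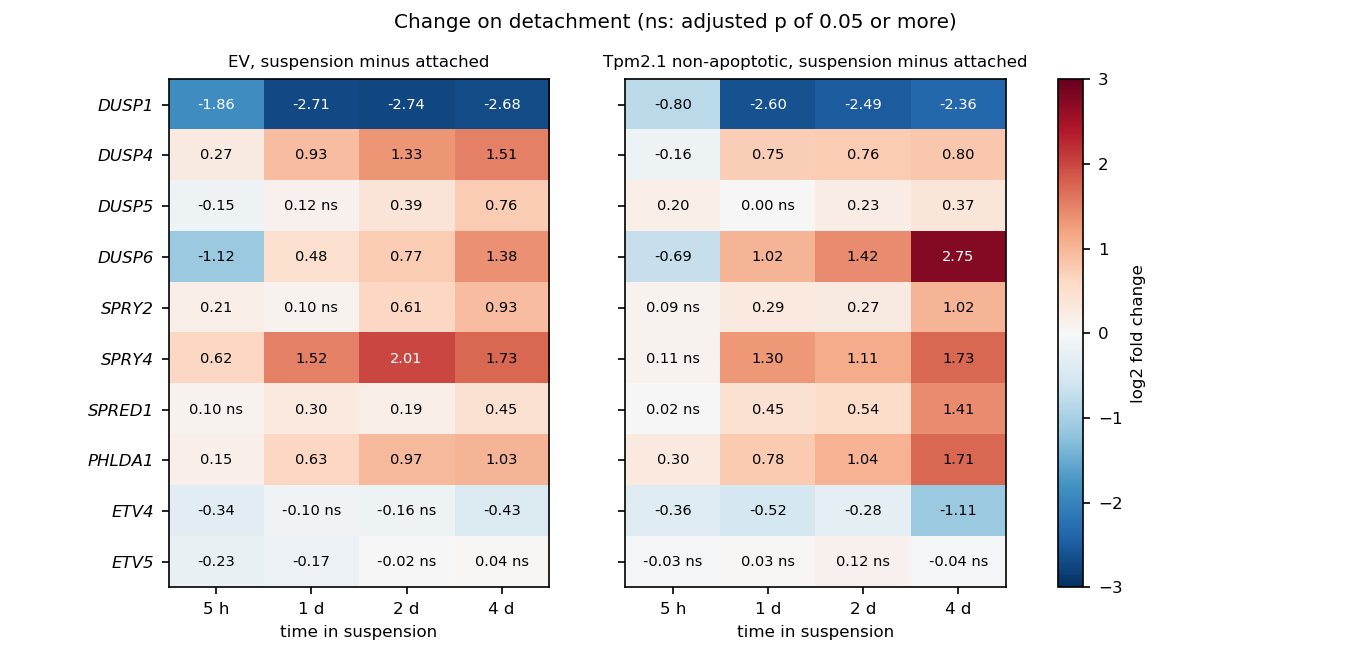
Log2 fold change of each member, suspended minus attached cells, by time in the EV line (left) and in Tpm2.1 non-apoptotic cells (right), 2 libraries a group; ns marks values that did not pass. DUSP1 is negative at every time in both lines, DUSP6 turns from -1.12 and -0.69 at 5 hours to 1.38 and 2.75 at 4 days, and ETV5 stays between -0.23 and 0.12.

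In the Tpm2.1 line, non-apoptotic cells also lost DUSP1 and gained DUSP6 late, with a smaller loss of DUSP1 at 5 hours and a larger gain of DUSP6 at 4 days. At 5 hours 2 phosphatases moved in opposite directions in the lines: DUSP4 was at 0.27 in EV and -0.16 in Tpm2.1 cells, and DUSP5 at -0.15 and 0.20, and the differences of -0.43 and 0.35 passed. DUSP1 was at 167 and 155 CPM in attached Tpm2.1 cells, 91.8 and 93.5 CPM at 5 hours, and 23.9 to 32.7 CPM in the 6 later libraries. The 5-hour libraries lay between the attached and the later ones without overlap, and the loss at that time was 1.74-fold (log2 -0.80, SE 0.08). By 1 day the log2 fold change was -2.60.

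DUSP6 was at 150 and 154 CPM attached, 92.5 and 95.5 CPM at 5 hours, 295 and 321 CPM at 1 day, 409 and 405 CPM at 2 days, and 1034 and 1015 CPM at 4 days. All 5 groups were apart, and the last was 6.75-fold above attached cells (log2 2.75, SE 0.06, adjusted p = 1.18e-30, edgeR quasi-likelihood test). The step from 2 to 4 days alone was 1.33 on the log2 scale, against 0.40 from 1 to 2 days.

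PHLDA1 went from 471 and 472 CPM attached to 1574 and 1514 CPM at 4 days (3.28-fold), and SPRED1 from 168 and 160 CPM to 439 and 434 CPM (log2 1.41, SE 0.06). SPRED1 made most of that gain after 2 days, when it was at 231 and 248 CPM. SPRY4 reached 824 and 810 CPM at 4 days (log2 1.73) from 247 and 244 CPM attached, after 553 and 504 CPM at 2 days. SPRY2 rose to 145 and 159 CPM from 74.1 and 75.4 CPM (log2 1.02). DUSP4 reached 1052 and 1130 CPM at 1 day and did not pass the test at either later step, ending 0.80 above attached cells after a drop of 0.16 at 5 hours. The DUSP4 drop at 5 hours did not pass without Tpm2.1 attached replicate 1 (-0.14) or replicate 2 (-0.16), or without 5-hour replicate 1 (-0.12).

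ETV4 fell at all 4 times in non-apoptotic cells, from 82.2 and 75.2 CPM attached to 37.1 and 35.7 CPM at 4 days, a 2.16-fold loss (log2 -1.11, SE 0.08). The value at 5 hours, -0.36, did not pass after the GC correction (-0.12, and -0.11 with the replicate block too). That at 2 days, -0.28, did not pass without attached replicate 1 (-0.18) or 2-day replicate 2 (-0.16). ETV5 passed at no time, with log2 values of -0.04 to 0.12. Over the 4 times 7 members rose and 2 fell, against 28.6% of all genes higher, 32.8% lower and 61.4% in either direction, with a median of 0.48 for the members and -0.01 for all genes. At 5 hours 2 rose and 4 fell, against 20%, 25.2% and 45.2% of all genes higher, lower and in either direction. At 1 day 6 rose and 2 fell (25.7%, 28.9% and 54.6% of all genes), at 2 days 7 and 2 (27.3%, 29.4% and 56.7%), and at 4 days 7 and 2 (29.9%, 32.7% and 62.5%). The counts over the 4 times were the same, 7 and 2, with 4 days left out.

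The responses of the lines to detachment were set against each other directly, by a test of the difference of the 2 differences. Averaged over the 4 times, 4 members responded more positively in the Tpm2.1 line and 3 more negatively, against 16.6% and 16.9% of all genes and 33.5% in either direction. DUSP6 had the largest difference, 0.75 on the log2 scale (SE 0.07, adjusted p = 7.45e-11, edgeR quasi-likelihood test), followed by DUSP4 at -0.47, DUSP1 at 0.43, SPRY4 at -0.41, SPRED1 at 0.34, ETV4 at -0.31 and PHLDA1 at 0.26. The negative values of DUSP4 and SPRY4 stand beside their higher start in attached Tpm2.1 cells. With 4 days left out, 2 members were more positive and 2 more negative, and SPRED1 (0.14), PHLDA1 (0.12) and ETV4 (-0.19) no longer passed. ETV4 also did not pass without Tpm2.1 attached replicate 1 (-0.24).

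Taken time by time, the difference at 5 hours was largest for DUSP1, 1.06 (SE 0.12, adjusted p = 1.71e-08, edgeR quasi-likelihood test), whose difference at the 3 later times was 0.11, 0.24 and 0.32 and did not pass. The DUSP1 value at 4 days did pass with DESeq2 (0.34), without the filter on low counts (0.34), in a fit of its own libraries (0.31) and after the GC correction (0.37), and that at 2 days in a fit of its own libraries (0.24). At 4 days it was largest for DUSP6, 1.37, and SPRED1, 0.95, with PHLDA1 at 0.68, DUSP4 at -0.71 and ETV4 at -0.68. SPRY4 differed by -0.51 at 5 hours and -0.90 at 2 days, and by 0.00 at 4 days. The counts of members passing were 5 at 5 hours (28.6% of all genes called), 3 at 1 day (26.6%), 5 at 2 days (34.4%) and 6 at 4 days (28.4%). At 1 day SPRY4, at -0.22, passed in the full set of libraries but not when any of 7 of its 8 libraries was left out (-0.22 to -0.20) or without the filter (-0.15).

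**Figure D3:**
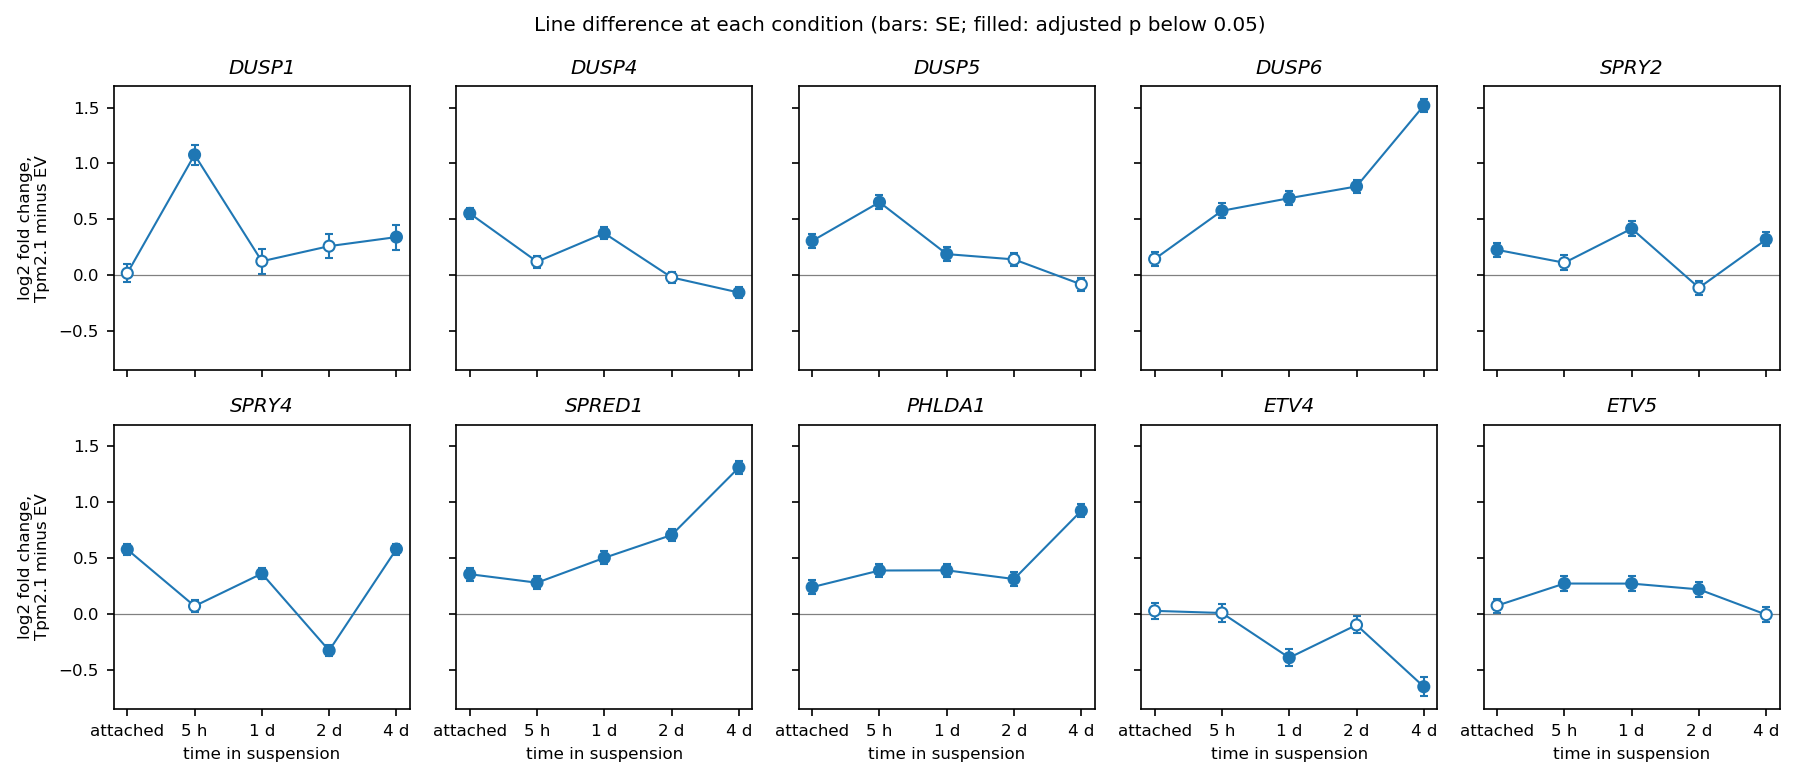
Log2 fold change of Tpm2.1 over EV cells for each member, attached and at each time in suspension (non-apoptotic fraction), with SE bars; filled points passed at an adjusted p of 0.05. DUSP1 has a single high value at 5 hours, 1.08, while DUSP6, SPRED1 and PHLDA1 are highest at 4 days, at 1.52, 1.31 and 0.92.

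Set against suspended EV cells at the same time, non-apoptotic Tpm2.1 cells had more of most members, averaged over the 4 times. All 10 members passed, 9 higher and 1 (ETV4, -0.28) lower, against 28.9% and 31.7% of all genes and 60.6% in either direction. DUSP6 had the largest mean difference, 0.89 on the log2 scale (SE 0.03), then SPRED1 at 0.70, PHLDA1 at 0.50 and DUSP1 at 0.45. DUSP4 (0.08), SPRY4 (0.17), SPRY2 (0.18), ETV5 (0.19) and DUSP5 (0.23) had smaller mean differences. The median of the 10 was 0.21, and that of all genes -0.03. SPRY4 did not pass with 4 days left out (0.03), which left 8 higher and 1 lower.

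At 5 hours DUSP1 was at 91.8 and 93.5 CPM in Tpm2.1 cells and at 42.4 and 45.5 CPM in EV cells, a 2.11-fold difference. DUSP5 was at 310 and 314 CPM against 195 and 201 CPM (log2 0.65), and DUSP6 at 92.5 and 95.5 CPM against 63.8 and 62.3 CPM (0.58). The groups did not overlap for any of these phosphatases. At that time 6 members were higher and 0 lower, against 20.2% of all genes higher, 20.7% lower and 40.9% in either direction. SPRED1 did not pass after the GC correction (0.12).

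At 4 days DUSP6 was at 1034 and 1015 CPM in Tpm2.1 cells and 359 and 356 CPM in EV cells, 2.86-fold apart. SPRED1 was at 439 and 434 CPM against 183 and 169 CPM, 2.48-fold, and PHLDA1 at 1574 and 1514 CPM against 847 and 782 CPM, 1.90-fold. ETV4 went the other way, with 37.1 and 35.7 CPM against 58.7 and 55.9 CPM (log2 -0.65, SE 0.08). SPRY4 was higher in Tpm2.1 cells at 1 day (0.36) and 4 days (0.58) and lower at 2 days (-0.33), when it was at 553 and 504 CPM against 670.5 and 658 CPM. Members higher and lower numbered 8 and 1 at 1 day, against 20.3%, 19.7% and 40% of all genes higher, lower and in either direction. They numbered 4 and 1 at 2 days (23.7%, 20.8% and 44.6% of all genes), and 6 and 2 at 4 days (20.3%, 23.7% and 44%). At 4 days DUSP1 (0.34) and DUSP4 (-0.16) did not pass without EV replicate 1 (0.32 and -0.13) or without Tpm2.1 replicate 2 (0.28 and -0.14). Mitochondrial mRNAs were 1.27% to 1.53% of counts in the non-apoptotic groups and 1.2% to 4.23% in the suspended EV groups, and the summed other-cell markers 105 to 190 CPM against 19.5 to 36.3 CPM; their part in these differences was not tested.

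Apoptotic and non-apoptotic cells of the Tpm2.1 line differed in 3, 4 and 1 members at 5 hours, 1 day and 2 days and in 9 of 10 at 4 days, a course that the share of all genes called also took (20.7%, 20.4%, 17.7% and 71.3%). Mitochondrial mRNAs were 3.4% to 6.13% of counts in the apoptotic groups and 1.27% to 1.53% in the non-apoptotic ones, and the nuclear RNA MALAT1 was at 147 to 310 CPM against 48.9 to 105 CPM; their part in the differences was not tested. In bulk RNA, a difference in the cells collected and in the RNA per cell cannot be told apart. At 5 hours 1 member was higher in the apoptotic fraction (ETV4, log2 0.27) and 2 were lower (ETV5, -0.20, and SPRED1, -0.16), against 9.91%, 10.8% and 20.7% of all genes higher, lower and in either direction. With the replicate number as a block the SPRED1 value did not pass (adjusted p = 0.0546, edgeR quasi-likelihood test), and over all alternatives its adjusted p was 0.0113 to 0.854. At 1 day 4 were lower and 0 higher, against 12.7%, 7.66% and 20.4% of all genes lower, higher and in either direction. These were lower, ETV5 by 0.34, DUSP4 by 0.22, DUSP5 by 0.20 and DUSP6 by 0.18 on the log2 scale. DUSP6 lost the call with DESeq2, its size factors and the FPKM table's scaling (-0.15 in each), among protein-coding genes (-0.13), in a fit of the contrast's own libraries (-0.13) and after the GC correction (-0.11). DUSP5 (-0.16) lost it among protein-coding genes, and in the fit of their own libraries DUSP4 (-0.18) and DUSP5 (-0.16) did not pass either, which left ETV5. At 2 days DUSP4 alone passed (-0.23), against 11.4% of all genes lower, 6.32% higher and 17.7% in either direction. Single libraries decided several of these small values. At 5 hours ETV4 did not pass without non-apoptotic replicate 1 (0.18) or apoptotic replicate 1 (0.20), ETV5 without replicate 2 of either fraction (-0.13 and -0.11), and SPRED1 without either non-apoptotic library (-0.17 and -0.18) or apoptotic replicate 2 (-0.13). At 1 day DUSP4 did not pass without non-apoptotic replicate 2 (-0.17), nor DUSP5 and DUSP6 without that library (-0.15 and -0.11) or apoptotic replicate 1 (-0.13 and -0.07). At 2 days DUSP4 did not pass without non-apoptotic replicate 1 (-0.15) or in a fit of its own libraries (-0.19).

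At 4 days ETV4 was at 7 and 5.73 CPM in the apoptotic fraction and at 37.1 and 35.7 CPM in the non-apoptotic one, a 5.72-fold difference (log2 -2.51, SE 0.13, adjusted p = 3.48e-20, edgeR quasi-likelihood test). DUSP5 was at 119 and 111 CPM against 350 and 351 CPM, 3.05-fold lower. DUSP1 was at 7.85 and 13.1 CPM against 30.1 and 32.7 CPM, a log2 difference of -1.59 (SE 0.14). The groups did not overlap for these genes. SPRY2 (-0.69), SPRY4 (-0.60), DUSP4 (-0.48) and ETV5 (-0.29) were also lower on the log2 scale. SPRED1 was higher, at 611 and 585 CPM against 439 and 434 CPM (0.46, SE 0.06), as was DUSP6, at 1174 and 1141 CPM against 1034 and 1015 CPM (0.18). PHLDA1 did not pass (-0.09), nor did ETV5 among protein-coding genes alone (-0.14). The counts were 2 higher and 7 lower, against 32.7%, 38.5% and 71.3% of all genes.

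The 4-day difference between the fractions followed the GC content of the transcripts across the whole table. The median log2 difference of all genes fell from 0.84 where GC was below 40% through 0.56, 0.07, -0.63 and -1.47 to -2.62 where it was above 60%. The members spread along that trend in part: SPRED1, the highest, has a GC content of 38.9%, DUSP6 46.7%, PHLDA1 44.3%, DUSP1 55.1%, DUSP5 55.9% and ETV4, the lowest, 60.8%. SPRY2 (48.3%) and ETV5 (48.6%), at -0.69 and -0.29, were below the median of their GC range, 0.07, and DUSP6 (0.18) was above it. PHLDA1 (-0.09) and SPRED1 (0.46) were below theirs, 0.56 and 0.84. DUSP4 (51.3%) and SPRY4 (50.4%), at -0.48 and -0.60, were nearer to theirs, -0.63. With the trend of GC removed from each library, all 10 members were lower in the apoptotic fraction at 4 days. The share of all genes called after the correction is not reported here. Before it 71.3% were called, so the count alone says little about the members. DUSP6 was then at -0.27, SPRED1 at -0.64 and PHLDA1 at -0.78, while ETV4 was at -0.78, DUSP5 at -0.77 and DUSP1 at -0.88. At 5 hours the median ran the other way, from -0.12 below 40% to 0.27 above 60%, and after the correction ETV4 (0.067), SPRED1 (-0.021) and ETV5 (-0.16) no longer passed at that time, while DUSP5 did (-0.18). The cause of the trend was not tested. In the comparison of the lines at 4 days the same medians ran from 0.10 to -0.21, and after the correction DUSP6 (1.48), SPRED1 (1.19), PHLDA1 (0.88) and ETV4 (-0.54) still passed.

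**Figure D4:**
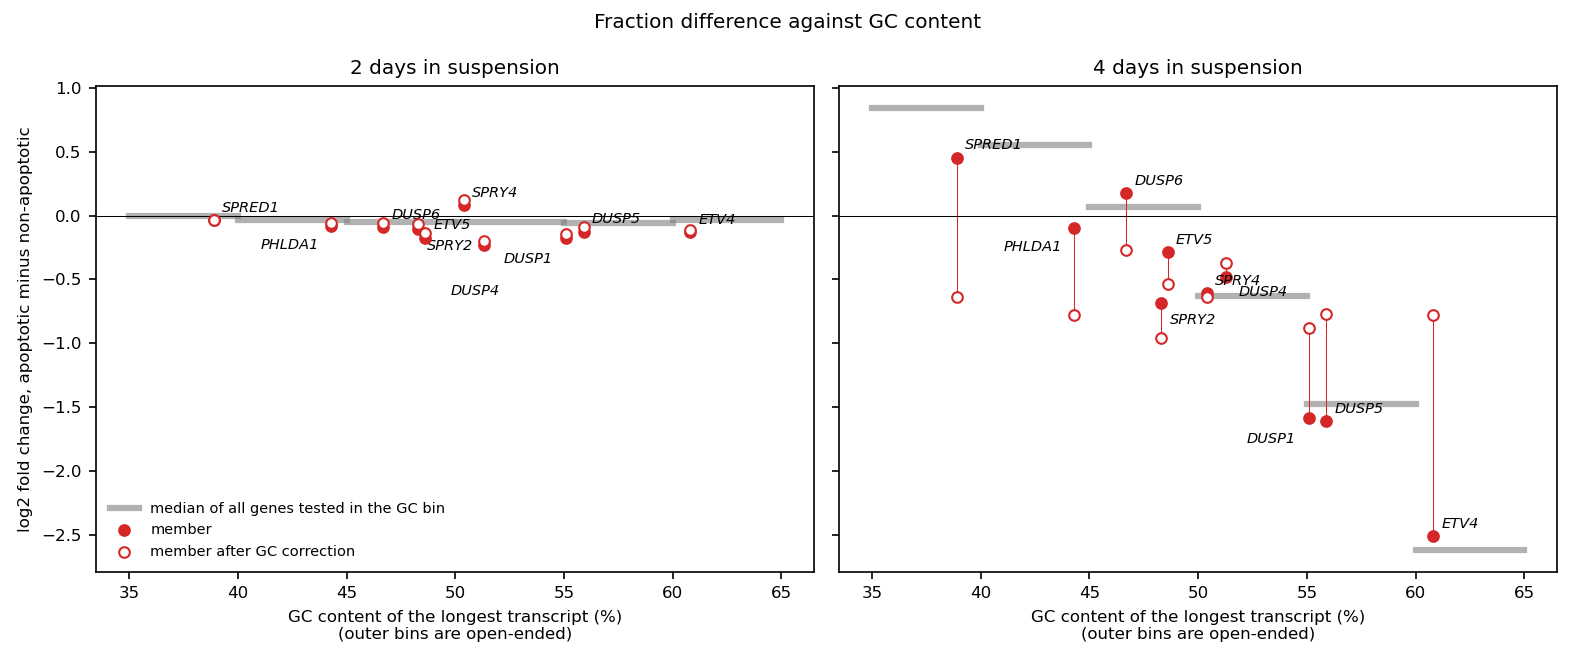
Log2 difference of the apoptotic from the non-apoptotic fraction against GC content of the longest transcript, at 2 days (left) and 4 days (right), each fraction with 2 libraries. Grey bars are medians of all genes in a GC bin, filled points members, and open points members after the GC correction. At 4 days the bars run from 0.84 to -2.62 and the filled points follow them in part, with SPRY2, ETV5, PHLDA1 and SPRED1 below their bars. The open points lie between -0.27 and -0.96.

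Within the apoptotic fraction, the members moved in both directions from 2 to 4 days, and SPRY4 (-0.06) did not pass. DUSP6 rose by 1.60, SPRED1 by 1.35, PHLDA1 by 0.66 and SPRY2 by 0.17 on the log2 scale, and 5 members fell, ETV4 by 3.22, DUSP5 by 1.34, DUSP1 by 1.27, ETV5 by 0.27 and DUSP4 by 0.21. Of all genes, 31.9% were called higher, 42.4% lower and 74.3% in either direction. After the GC correction DUSP6 was at 1.16, SPRED1 at 0.23, ETV4 at -1.46, DUSP5 at -0.48, DUSP1 at -0.54 and ETV5 at -0.51, and SPRY2 (-0.092), PHLDA1 (-0.026) and DUSP4 (-0.066) did not pass. SPRY2 did not pass without the filter on low counts (0.14), DUSP4 (-0.13) and ETV5 (-0.20) did not in a fit of these libraries alone, nor did DUSP4 among protein-coding genes alone (-0.10). DUSP4 did not pass without apoptotic 4-day replicate 1 (-0.14), nor ETV5 without that library (-0.16) or 2-day replicate 2 (-0.18).

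Averaged over the 4 times, 7 members were lower in the apoptotic fraction and 0 higher, against 34.7% and 22.8% of all genes and 57.5% in either direction, with a median of -0.25 for the members and -0.04 for all genes. SPRY4 did not pass among protein-coding genes alone (-0.05), and SPRED1, at 0.05 and not passing, passed with DESeq2 (0.08) and, with the other sign, after the GC correction (-0.19). Without 4 days, 6 were lower, and the values were -0.24 for ETV5, -0.18 for DUSP4, -0.13 for DUSP5, -0.10 for DUSP6 and SPRY2, and -0.08 for SPRED1. DUSP1 (-0.04), ETV4 (0.05), SPRY4 (0.05) and PHLDA1 (-0.05) then did not pass. The change of the fraction difference from 5 hours to 4 days was itself tested, with 2 members moving up and 6 down, against 29.3% and 37.1% of all genes and 66.4% in either direction. ETV4 changed by -2.78, DUSP1 by -1.74, DUSP5 by -1.54 and SPRED1 by 0.61, with a median of -0.50 for the members and -0.14 for all genes. After the GC correction all 10 changed downward, with ETV4 at -0.84, DUSP1 at -0.94, DUSP5 at -0.59, SPRED1 at -0.62 and DUSP6 at -0.31. The share of all genes called after the correction is not reported here, so this count too says little about the members. The DUSP6 value without the correction, 0.21, did not pass without apoptotic 5-hour replicate 1 (0.20).

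The members did not vary as 1 block over the 14 groups. Pearson correlations of group means of log2 CPM, which share their libraries' depth and scaling, ran from -0.85 (SPRED1 and ETV4) to 0.93 (DUSP6 and PHLDA1), with a median of 0.27 over the 45 pairs. DUSP4 and SPRY4 also reached 0.93, and SPRED1 and PHLDA1 0.90. DUSP1 was inverse to SPRY4 (-0.84) and PHLDA1 (-0.77), and DUSP5 was close to 0 with PHLDA1 (-0.04) and DUSP6 (-0.12). DUSP4, DUSP6, SPRY2, SPRY4, SPRED1 and PHLDA1, a grouping made after the values were seen, had correlations of 0.44 to 0.93 among themselves. Without the apoptotic fraction at 4 days, over 13 groups, the median of the pairs was 0.49, and these 6 genes correlated by 0.63 to 0.94. DUSP5 then stood at 0.65 with PHLDA1 and 0.59 with DUSP6, and its correlation with ETV4 went from 0.69 to -0.41.

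**Figure D5:**
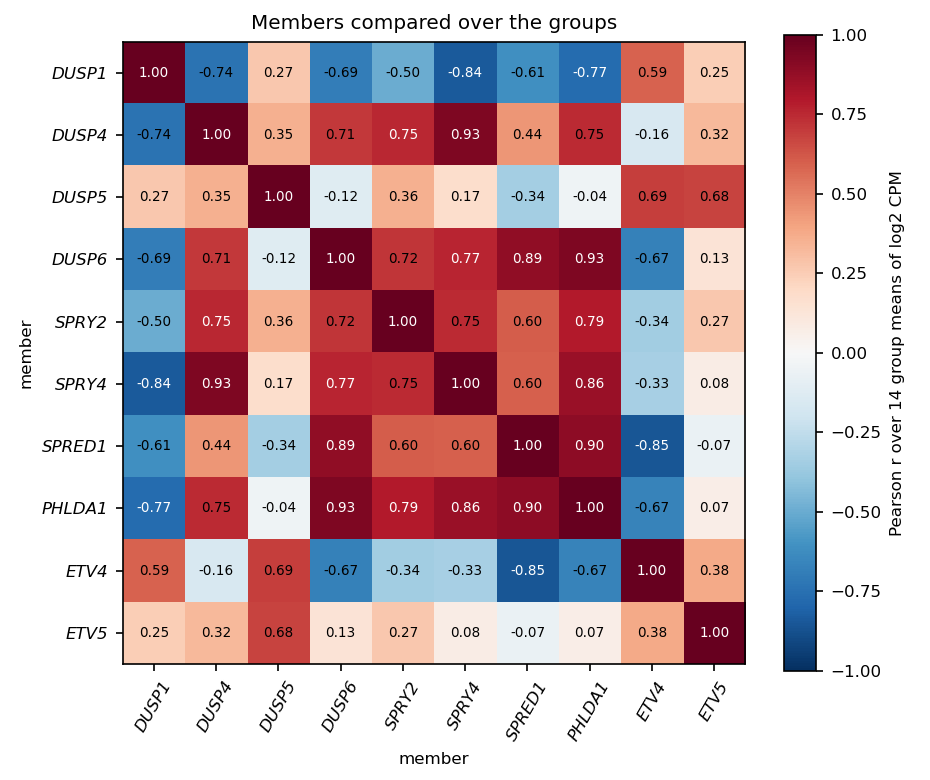
Pearson correlation of each pair of members over the 14 group means of log2 CPM; red is positive and blue negative. DUSP4, DUSP6, SPRY2, SPRY4, SPRED1 and PHLDA1 are red with one another (0.44 to 0.93), and DUSP1 is blue against all of them.

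Outside the set, the protein-coding gene most like a member over the 14 groups, of 10471 with at least 10 CPM in a group, was found by the same correlation. For DUSP6 it was THSD4 (r = 0.99), at 56.7 CPM in attached EV cells, 41.4 CPM at 5 hours, and 281 CPM in non-apoptotic cells at 4 days. For PHLDA1 it was TIMP1 (0.98), a metalloproteinase inhibitor, which went from 143 CPM in attached Tpm2.1 cells to 4813 CPM at 4 days. For ETV4 it was MXD3 (0.99), a MYC antagonist family member, which like ETV4 was lowest in the apoptotic fraction at 4 days, at 0.382 CPM. SPRY4 was most like CDCP1 (0.97), a transmembrane protein, and DUSP1 like PCID2 (0.97). DUSP5 was most like BBC3 (0.95), which encodes the apoptosis inducer PUMA and was at 4.2 to 12 CPM outside the apoptotic fraction at 4 days. DUSP4 was most like HLA-C (0.94), ETV5 like BRK1 (0.89) and SPRY2 like the lymphangiogenic ligand VEGFC (0.89). Over the 13 groups without the apoptotic fraction at 4 days, THSD4 (0.98), MXD3 (0.96), BRK1 (0.87) and VEGFC (0.97) were again the most like. PCID2 (0.96), HLA-C (0.94), BBC3 (0.86), CDCP1 (0.97) and TIMP1 (0.97) then had other genes above them.

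Other feedback genes, 14 in number and all tested, also moved in both directions on detachment. In EV cells 9 rose and 5 fell over the mean of the times, against 32.4% of all genes higher, 33.8% lower and 66.2% in either direction. In non-apoptotic Tpm2.1 cells 9 rose and 3 fell (61.4% of all genes called). ETV1, the third PEA3-type ETS factor, rose where ETV4 fell, from 31.9 and 34.7 CPM in attached EV cells to 191 and 180 CPM at 4 days (mean log2 fold change 1.84). DUSP14, another dual-specificity phosphatase, fell in both lines (-1.36 and -1.16). Between the lines in suspension 9 were higher and 4 lower in Tpm2.1 cells, with DUSP10, a phosphatase of p38 and JNK, at 1.08 and the early response gene IER3 at 0.93. Between the fractions 1 was higher and 7 lower (57.5% of all genes called), with DUSP7 and DUSP14 at -0.27 and -0.28. At 4 days DUSP7 was at 43.2 CPM in apoptotic and 80.4 CPM in non-apoptotic cells, and DUSP14 at 15.7 and 27.3 CPM. At 5 hours DUSP7 was at 116 and 113 CPM, and DUSP14 at 34.7 and 34.2 CPM. The GC trend was not removed from these means. At 2 days 0 of the 14 genes were higher and 1 lower (17.7% of all genes called), and at 4 days 3 and 6 (71.3%). In attached cells 5 were higher and 1 lower in the Tpm2.1 line (20.2% of all genes called).

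ERK-responsive genes outside the feedback loop, 14 in number and all tested, moved on detachment of EV cells with 3 up and 9 down over the mean of the times, where the members had 7 and 2. Of all genes 32.4% were higher, 33.8% lower and 66.2% called in either direction, and the difference of the counts was not tested. HBEGF, a ligand of the EGF receptor, was at 140 and 137 CPM in attached EV cells and at 19.9 to 46.3 CPM in the 8 suspended libraries (mean log2 fold change -2.22). MYC fell by 1.23 in the same contrast. EPHA2, an Eph receptor, was also low at 5 hours, from 713 and 715 CPM attached to 206 and 219 CPM at 5 hours, and back to 823 and 760 CPM at 4 days. CCND1, which encodes cyclin D1, was at 1082 and 1112 CPM attached, 679.5 and 716 CPM at 5 hours, and 1374 and 1251 CPM at 4 days. In non-apoptotic Tpm2.1 cells 5 of the 14 rose and 7 fell (61.4% of all genes called), with the EGF receptor ligand EREG at 1.65 and the AP-1 subunit FOSL1 at -1.18.

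Between the lines in suspension, 9 of those 14 genes were higher and 3 lower in Tpm2.1 cells. HBEGF was at 258 and 254 CPM in non-apoptotic cells at 4 days against 46.3 and 36.2 CPM in EV cells, and averaged 2.01 on the log2 scale. EREG averaged 1.61 and EPHA4 0.47, while CCND1 was lower, by -0.56. In attached cells 8 were higher and 0 lower in the Tpm2.1 line (20.2% of all genes called). EGR1, an immediate early transcription factor, was at 71.2 and 77.6 CPM against 35.9 and 34.7 CPM (1.08). Between the fractions 3 were higher and 8 lower (57.5% of all genes called). EPHA2, at 126 and 130 CPM in apoptotic against 718 and 719 CPM in non-apoptotic cells at 4 days, averaged -0.65. That mean rests on 4 days, and the GC trend was not removed from it. EPHA2 was at 362 and 357 CPM against 331 and 347 CPM at 5 hours, and at 555 and 530 CPM against 611 and 575 CPM at 2 days. By time, 0 of the 14 genes were higher and 0 lower at 2 days (17.7% of all genes called), and 5 and 8 at 4 days (71.3%).

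The cascade itself, 25 genes from the EGF receptor to the ETS partners of SRF, moved in both directions. In EV cells 8 rose and 13 fell on detachment (66.2% of all genes called), with a median of -0.15. In non-apoptotic Tpm2.1 cells 7 rose and 9 fell (61.4%), with a median of -0.03. SRF fell by 0.94 and 0.87 in these contrasts and EGFR by 0.66 in both. In attached cells 5 were higher and 4 lower in the Tpm2.1 line (20.2% of all genes called), with EGFR higher by 0.53. In suspension 11 were higher and 8 lower (60.6% of all genes called). Between the fractions 9 were higher and 14 lower (57.5% of all genes called), with MAP2K2, which encodes MEK2, at -0.996. That mean rests on 4 days, when MAP2K2 was at 15.9 and 11.5 CPM in apoptotic and 202 and 199.6 CPM in non-apoptotic cells. At 2 days it was at 178 and 190 CPM against 204 and 198 CPM. At that time 2 cascade genes were higher and 3 lower (17.7% of all genes called), against 11 and 12 at 4 days (71.3%).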

How the data were processed

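Poly-A RNA of 28 MDA-MB-231 libraries was sequenced. The authors deposited whole-number counts per gene and FPKM values for the same genes; the submitters' processing notes name build hg38 and the tool DESeq2 without its role. Which aligner and counter were used is not stated in these sources. Deposited FPKM values equal the deposited count over gene length and a scaled library total. Gene coordinates matched GENCODE release 29 for 58724 of 58735 genes, and 23006 genes were at 0 throughout. The columns were matched to samples by the library name in the labels.

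The test was edgeR 4.0.16 (R 4.3.3) on the counts (TMM, filterByExpr on groups, 1 mean per group over all 28 libraries, quasi-likelihood F test), testing 17191 genes with 14 residual degrees of freedom. CPM are TMM-scaled. Adjusted p-values are Benjamini-Hochberg values over all genes of a contrast, and a gene passed below 0.05. The SE is the absolute log2 fold change over the square root of F. Means over times weight times equally. Levels of different genes were compared on FPKM alone. GC content is that of the longest GENCODE transcript, and its lowess trend was removed per library as an offset.

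The members, gene lists and tests were chosen with earlier results of these data known. All 10 members are named; from the other lists CCND1, EPHA2, EPHA4 and the 2 genes with the smallest p per list and contrast could be named, and the gene most like each member by Pearson correlation. Some of the genes these rules name are not reported here. Alternatives included a DESeq2 1.42.0 fit, its size factors, the FPKM table's scaling, no filter, only protein-coding genes, only a contrast's own libraries, a replicate block, the GC correction, both together, each library left out, and means without 4 days; ranges and correlations over 13 groups were added after the data were seen. Totals of 13043529 to 27416335 counts gave members at least 67 counts per library. On simulated data with 16473 genes tested, 94% of genes changed 1.5-fold were called in the attached comparison and 6.22% of calls were false; for the fractions (16488 genes) these were 100% and 3.85%. The simulated data held few changed genes, a spread fitted to these libraries and no GC trend. These rates may therefore not hold for the real contrasts, where many more genes were called.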

Additional observations from a re-analysis of the deposited data

Results flagged for a closer look

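Results are given here because the same contrast had another size in a second line or at a second time, by a test of the difference itself. Between the lines, the response to detachment, as the mean over the times, differed on the log2 scale by 0.75 for DUSP6, -0.47 for DUSP4, 0.43 for DUSP1, -0.41 for SPRY4, 0.34 for SPRED1, -0.31 for ETV4 and 0.26 for PHLDA1. Of these, the means of SPRED1, ETV4 and PHLDA1 did not pass without 4 days, as given with the comparison above. Time by time, SPRED1 also passed at 2 days (0.35) and ETV4 at 1 day (-0.42), while PHLDA1 passed at 4 days only. In the fit of all libraries DUSP1 passed at 5 hours only (1.06).

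Between 5 hours and 4 days, the difference of the apoptotic from the non-apoptotic fraction changed by -2.78 for ETV4, -1.74 for DUSP1, -1.54 for DUSP5, -0.66 for SPRY4, -0.60 for SPRY2, -0.39 for DUSP4, 0.61 for SPRED1 and 0.21 for DUSP6. After the GC correction ETV4 was at -0.84, DUSP1 at -0.94 and DUSP5 at -0.59, SPRY2 at -0.91 and DUSP4 at -0.26, and the signs of SPRED1 (-0.62) and DUSP6 (-0.31) turned. Groups of 2 libraries are too small for a test of outlying libraries.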

How the results depend on the processing

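Of 5450 values of single members recomputed under an alternative, 5190 kept their side of the threshold and, where they passed, their direction. Direction was compared only where a value passed in the main fit or in the alternative. Values that passed in neither could change sign, as DUSP1 between the fractions at 1 day did (-0.25 to 0.05). Of the values compared for direction, 17 turned around, each under the GC correction or without 4 days. After the GC correction, with or without the replicate block, these were SPRED1 in the mean of the fractions (-0.19), DUSP6 and SPRED1 in the fractions at 4 days (-0.27 and -0.64) and in their change with time (-0.31 and -0.62), and SPRY2 and PHLDA1 from 2 to 4 days in the apoptotic fraction (-0.092 and -0.026, with the block -0.093 and -0.026). Without 4 days they were SPRED1 (-0.084), SPRY4 (0.051) and ETV4 (0.051) in the mean of the fractions. Without 4 days the lines' responses to detachment differed in 4 members in place of 7. The cause was not tested.

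By the same rule, which compares no signs where neither fit passed, leaving out 1 library turned no value around in 2160, and 78 lost and 14 gained a call. The members passing then numbered 4 to 6 in attached cells, 9 in either response to detachment, 10 between the lines in suspension, 7 to 9 between the fractions, 6 to 7 for the difference of the responses and 7 to 8 for the change with time. Leaving out any 1 of the attached libraries took all genes called there from 3468 to between 2029 and 2188, and fitting those libraries alone gave 5440. Between the fractions at 5 hours the 3563 genes called became 1858 with the GC correction and 1828 with the block too, and as few as 1687 without 1 library; those at 1 day became as few as 1755, and those at 2 days, 3049, became 1538 from their own libraries and as few as 1124 without 1. DESeq2's size factors moved the median change with time of all genes from -0.14 to -0.04.

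Replicate numbers showed no general pairing of the samples: over 91 pairs of groups, deviations of same-numbered libraries correlated by -0.17 to 0.23 (median 0.01, over 0.1 in 10). Same-numbered apoptotic and non-apoptotic libraries of the same time may share a culture, which the labels do not state. Their pairs are among the 91, so none was above 0.23, but they were not examined apart. The replicate block uses the replicate number alone and does not model such a shared culture, so the fractions were compared as unpaired. With the replicate block 358 of 360 values kept their call; SPRED1 between the fractions at 5 hours (-0.16) lost it and ETV4 in EV cells at 2 days (-0.16) gained it.

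Groups of 2 libraries give a spread that is pooled over the groups, so an effect on the spread of a single group goes unseen. ETV4 and DUSP1 in the apoptotic fraction at 4 days rest on 67 and 93 counts in their lowest library.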
